A study of Mus musculus with 9 samples.

Results

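The genes described here encode the DNA replication machinery, from the proteins that mark origins to those that join the finished strands. They were chosen by name: 44 gene symbols, sorted by the role of their products into 12 groups, of 38195 symbols in the expression table, and all 44 were present, each in 1 row. RNA was measured by sequencing in tissue microdissected from the hypothalamus of E12.5 embryos of the outbred mouse strain CD-1. Coronal vibratome slices were separated into the ventricular zone (VZ), which lines the ventricle and holds dividing progenitors, the medial mantle zone (mMZ) next to it, and the lateral mantle zone (lMZ), the outermost of the 3 zones. Each zone had 3 libraries, and the labels name no mutation or treatment. Whether replicates of a zone were taken from different embryos is not stated in the labels, so p-values measure only the spread between libraries, which may be technical.

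Replication starts at origins bound by the origin recognition complex, where Cdc6 helps load the ring of MCM2-7 proteins as an inactive helicase. In S phase Mcm10, Cdc45 and the GINS proteins turn that ring into the active CMG helicase, primase with polymerase alpha lays down primers, and polymerases delta and epsilon extend them on the sliding clamp PCNA. The activator E2F proteins raise transcription of many of these genes as a cell leaves G1, and in the developing neural tube dividing progenitors lie next to the ventricle while postmitotic neurons settle in the mantle.

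The zone labels were checked against marker lists. The summed level of 6 neural progenitor markers was 1605, 897 and 1839 FPKM (fragments counted on a gene, divided by its transcript length and by the library's total) in the 3 VZ libraries, 1052, 868 and 988 FPKM in mMZ and 117, 85.4 and 113 FPKM in lMZ. Vim alone had 918, 522 and 899 FPKM in VZ. Pax6, 1 of the 6, did not follow the sum, with 15.2, 24.1 and 30.6 FPKM in VZ and 46.1, 34.6 and 5.61 FPKM in lMZ. Its log2(FPKM + 1) difference, VZ minus lMZ, was 0.07 ± 0.70 (SE, limma adjusted p 0.953). Neuronal markers, of which 5 of 6 were in the table, summed to 309 to 712 FPKM in VZ, 706 to 857 FPKM in mMZ and 957 to 1155 FPKM in lMZ. VZ replicate 2 thus lay inside the mMZ range for both lists. Red blood cell markers summed to 1979 to 2179 FPKM in VZ, 1410 to 2582 FPKM in mMZ and 322 to 616 FPKM in lMZ, and their part in the differences below was not tested. Microglial markers summed to 5.31 to 16.3 FPKM in VZ, 9.68 to 20.4 FPKM in mMZ and 25.7 to 36.9 FPKM in lMZ, so the VZ and lMZ ranges did not overlap, and of the 5 that were tested Csf1r and C1qa were lower in VZ than in lMZ at a limma adjusted p below 0.05. Their part in the differences was not tested either. Endothelial markers summed to 5.99 to 37.5 FPKM in VZ, 20.2 to 48.6 FPKM in mMZ and 11.9 to 37.2 FPKM in lMZ, and meningeal markers to at most 6.67 FPKM in any library. In bulk tissue, fewer cells of a type and less RNA per cell cannot be told apart. The smallest steps between low values imply 4415704 to 8810489 counted fragments in 7 libraries, but 260016 in VZ replicate 3 and 537032 in mMZ replicate 3, which were 24.8-fold and 12.0-fold below the median library. VZ replicate 3 held the highest of the 3 VZ values for 39 of the 44 replication genes, by a median of 1.97-fold over the mean of the other 2 VZ libraries. Likewise mMZ replicate 3 held the highest mMZ value for 36 genes, by a median of 1.58-fold. An estimated 13 of the 44 genes rested on fewer than 10 fragments in VZ replicate 3 and 6 genes in mMZ replicate 3, so the called differences are also given for the 7 deeper libraries, which leave 2 libraries in VZ and 2 in mMZ.

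Of the 44 replication genes, 25 were higher in VZ than in lMZ, 8 were higher in mMZ than in lMZ, and 0 passed the limma threshold between VZ and mMZ. The zone mean was highest in VZ, lower in mMZ and lowest in lMZ for 34 of 44 genes over all 9 libraries, and for 34 over the 7 deeper ones. These were not all the same genes. Orc1, Orc4, Gins3 and Chaf1b had this order only in the deeper libraries, and Orc2, Orc5, Prim2 and E2f2 only over all 9. Over all 9 libraries the highest zone mean was in VZ for 36 genes, in mMZ for 7 and in lMZ for 1, Rfc5. In the 7 deeper libraries the mMZ mean was above the VZ mean for 8 genes. No share over all tested genes was computed for these counts of zone means. Between VZ and lMZ, 25 of the 44 genes rose and 0 fell at a limma adjusted p below 0.05, where 10.7% of all 14004 tested genes rose and 8.93% fell. The count lower in VZ was also 0 at an unadjusted p below 0.05, where 2307 of the 14004 tested genes were lower. It was 0 in the 7 deeper libraries too, where 12.4% of tested genes fell at a limma adjusted p below 0.05. All 3 VZ libraries lay above all 3 lMZ libraries for 36 of 44 genes, against 25.2% of tested genes. The median log2 difference of the 44 genes, on the log2(FPKM + 1) scale, was 1.27, against 0.05 for all tested genes. In the 7 deeper libraries 28 genes rose, the same 25 with Pola1, Pold3 and Chaf1b added, against 15.7% of all tested genes, and the median difference of the 44 genes was 1.003. With library weights estimated by limma 35 genes rose, against 24.7% of all tested genes. Without lMZ replicate 1, 2 or 3 the count that rose was 14, 15 and 15, where 677, 656 and 796 of the 14004 tested genes rose. Of the 25 genes, 14 kept their call in each of the 9 fits that leave out 1 library. Relative to the mean in VZ, the mean in lMZ was under 20% for 14 genes, 20 to 50% for 17 and over 50% for 13, and in the deeper libraries these counts were 9, 16 and 19. For these counts too, the share over all tested genes was not computed.

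**Figure D1:**
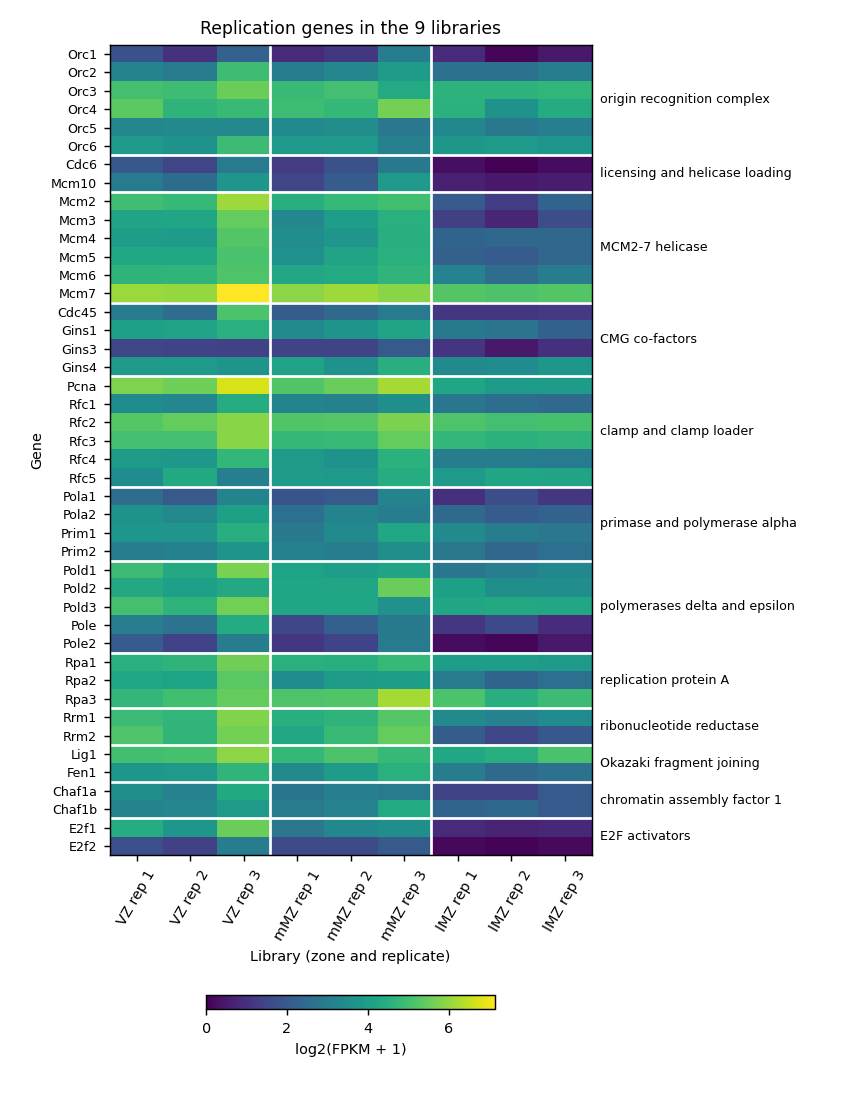
Level of each of the 44 replication genes, as log2(FPKM + 1) in colour, with genes down the page by complex and the 9 libraries across, VZ first, then mMZ and lMZ. Most rows darken in the 3 lMZ columns, while the rows for Orc5 and Rfc2 change little in colour.

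The origin recognition complex (ORC), 6 proteins that bind at origins, had the lowest median difference of the 12 groups. No ORC gene passed the threshold between VZ and lMZ, by limma with all 9 libraries or with the 7 deeper ones. At an unadjusted p below 0.05, 2 of the 6 were higher in VZ, Orc3 and Orc4, as were 2702 of all 14004 tested genes. With library weights Orc1, Orc3 and Orc4 passed, with limma adjusted p of 0.01098, 0.0253 and 0.00448. The median log2 difference of the 6 genes was 0.63, and 0.31 in the deeper libraries. The level of Orc1 was 2.46, 1.04 and 3.78 FPKM in VZ and 0.805, 1.23 and 7.15 FPKM in mMZ, against 0.823, 0.0937 and 0.408 FPKM in lMZ. This gene for the largest subunit, which is the one known in mammalian cells to be degraded and remade each cycle, was low throughout, and its VZ libraries lay above its lMZ libraries while its mMZ libraries spread across both. VZ minus lMZ, Orc1 differed by 1.20 ± 0.57 (SE; limma adjusted p 0.164) on the log2 scale. In VZ, Orc5 was measured at 8.71, 9.64 and 9.25 FPKM, in mMZ at 9.75, 10.6 and 6.28 FPKM and in lMZ at 9.14, 6.32 and 7.37 FPKM. Orc5, an ATP-binding subunit of the core ring, had overlapping libraries in every pair of zones, and the log2 difference of Orc5, VZ minus lMZ, was 0.26 ± 0.25 (SE; limma adjusted p 0.4902). The other 4 genes, Orc2, Orc3, Orc4 and Orc6, had VZ means of 14.9 to 35.7 FPKM and lMZ means of 5.98 to 24.1 FPKM. Orc2 shares 29.8% of its exonic bases with Nif3l1 on the opposite strand, and no source says whether strand was used in the counting, so reads of the pair cannot be told apart. The promoter windows of Orc1 and Orc5 are shown because they are the ends of the range in this complex. They are RefSeq windows of the GRCm38.p6 table, 250 bases before and 50 after an annotated start, 5′ to 3′ on the gene's strand, at chr4:108579204-108579503 on the plus strand for Orc1 and chr5:22550289-22550588 on the minus strand for Orc5. Capitals mark matches on either strand to the E2F-type words TTCCCGC or TTCGCGC or TTGCCGC or TTGGCGC, to the word CCAAT, and to the word TTTGAA, the core of the motif of many genes expressed in G2 and mitosis.
Orc1: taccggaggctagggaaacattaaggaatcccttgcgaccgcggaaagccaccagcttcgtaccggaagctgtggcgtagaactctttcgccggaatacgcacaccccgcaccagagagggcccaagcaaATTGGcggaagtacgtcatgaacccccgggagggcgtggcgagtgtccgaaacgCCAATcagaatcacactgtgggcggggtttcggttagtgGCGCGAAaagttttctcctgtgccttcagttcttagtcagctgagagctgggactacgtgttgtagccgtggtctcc
Orc5: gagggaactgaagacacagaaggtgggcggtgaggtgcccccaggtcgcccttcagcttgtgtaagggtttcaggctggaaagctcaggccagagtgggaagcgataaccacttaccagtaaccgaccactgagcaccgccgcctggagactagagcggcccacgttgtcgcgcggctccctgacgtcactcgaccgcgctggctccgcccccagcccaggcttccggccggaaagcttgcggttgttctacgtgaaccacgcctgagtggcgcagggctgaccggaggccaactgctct
The Orc1 window held 1 E2F-type word, GCGCGAA on the opposite strand 27 to 21 bases before the start, and 2 CCAAT words. No word of the 3 kinds is in the Orc5 window.

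Both genes that act in helicase loading and activation rose in VZ over lMZ. Cdc6 reached 2.86, 1.81 and 6.55 FPKM in VZ, 1.41, 2.42 and 6.42 FPKM in mMZ and 0.217, 0 and 0.175 FPKM in lMZ. Cdc6 is the ATPase that recruits the helicase to origins, and its highest lMZ value was below its lowest value in either other zone. It was the only replication gene listed at 0 in any library. The Cdc6 difference, VZ minus lMZ in log2 units, was 1.95 ± 0.48 (SE; limma adjusted p 0.0235). Mcm10 had 6.92, 4.75 and 12.2 FPKM in the VZ libraries, 1.81, 3.23 and 13.7 FPKM in mMZ and 0.588, 0.393 and 0.457 FPKM in lMZ. Mcm10, which helps to switch the loaded helicase on, showed the same separation of lMZ from both other zones. On the log2 scale Mcm10 gave a difference of 2.51 ± 0.57 (SE; limma adjusted p 0.0168) for VZ minus lMZ. In the 7 deeper libraries the differences were 1.55 for Cdc6 and 2.19 for Mcm10, with limma adjusted p of 0.00657 and 0.00165. Both calls were lost without VZ replicate 1 or without any single lMZ library, with limma adjusted p of 0.0601 to 0.0834 for Cdc6 and 0.0525 to 0.0629 for Mcm10.

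All 6 genes of the MCM2-7 helicase ring rose in VZ over lMZ, with a median log2 difference of 2.19, and 1.92 in the 7 deeper libraries. The level of Mcm2 was 30.2, 26.9 and 68.2 FPKM in VZ and 21.7, 26.8 and 30.9 FPKM in mMZ, against 3.19, 1.46 and 3.93 FPKM in lMZ. In VZ, Mcm3 was measured at 16.98, 17.7 and 43.1 FPKM, in mMZ at 8.83, 14.7 and 22.2 FPKM and in lMZ at 1.56, 0.708 and 2.23 FPKM. Mcm4 reached 14.9, 14.2 and 36.6 FPKM in VZ, 10.3, 12.2 and 21.8 FPKM in mMZ and 3.95, 4.21 and 4.22 FPKM in lMZ. For these 3 subunits every VZ and mMZ library lay above every lMZ library, and VZ replicate 3 was the highest of all. Mcm5 had 18.4, 18.7 and 33.02 FPKM in the VZ libraries, 11.05, 17.2 and 22.4 FPKM in mMZ and 3.604, 3.195 and 4.12 FPKM in lMZ. The level of Mcm6 was 24.3, 24.8 and 35.4 FPKM in VZ and 18.7, 19.5 and 24.8 FPKM in mMZ, against 7.93, 4.88 and 7.05 FPKM in lMZ. The same separation from lMZ held for Mcm5 and Mcm6, whose proteins sit on either side of Mcm2 in the ring. In VZ, Mcm7 was measured at 66.5, 63.7 and 141 FPKM, in mMZ at 58.8, 68.4 and 58.5 FPKM and in lMZ at 36.98, 34.8 and 36.4 FPKM. Mcm7, part of the catalytic core with Mcm4 and Mcm6, was the most abundant subunit in all 9 libraries, and its lMZ libraries were close to each other and below all VZ and mMZ libraries. For Mcm2 the log2 difference, VZ minus lMZ, was 3.40 ± 0.38 (SE; limma adjusted p 0.000848), the largest of the ring, and the log2 difference of Mcm3, VZ minus lMZ, was 3.34 ± 0.44 (SE; limma adjusted p 0.00168). The smallest was Mcm7, and the log2 difference of Mcm7, VZ minus lMZ, was 1.20 ± 0.27 (SE; limma adjusted p 0.0166). Between these, the differences were 2.03 ± 0.38 for Mcm4, 2.35 ± 0.31 for Mcm5 and 1.94 ± 0.24 for Mcm6 (SE), with limma adjusted p of 0.00828, 0.00168 and 0.00136. In the 7 deeper libraries they were 2.99 for Mcm2, 2.92 for Mcm3, 1.60 for Mcm4, 2.08 for Mcm5 and 1.77 for Mcm6. The Mcm7 call was lost without any single lMZ library, with limma adjusted p of 0.0519 to 0.0629, and was kept in the deeper libraries with a difference of 0.84 and an adjusted p of 0.00311. The other 5 calls were kept in each of the 9 fits that leave out 1 library.

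The make-up of the ring is given as ratios of levels within a library, with no test. Mcm7 was 3.17, 3.12 and 3.26 times the mean of the other 5 subunits in the 3 VZ libraries, 4.16, 3.79 and 2.39 times in mMZ, and 9.14, 12.0 and 8.45 times in lMZ. The lMZ libraries thus stood apart from both other zones, whose ratios overlapped. The most abundant subunit exceeded the least abundant by 4.28 to 4.50 times in VZ, 2.68 to 6.66 times in mMZ and 16.3 to 49.1 times in lMZ, and in lMZ the least abundant was Mcm3 in all 3 libraries. Mcm7 shares 7.25% of its exonic bases with Ap4m1 on the opposite strand and hosts Mir25 and Mir93, and the part of these in its level was not tested.

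**Figure D2:**
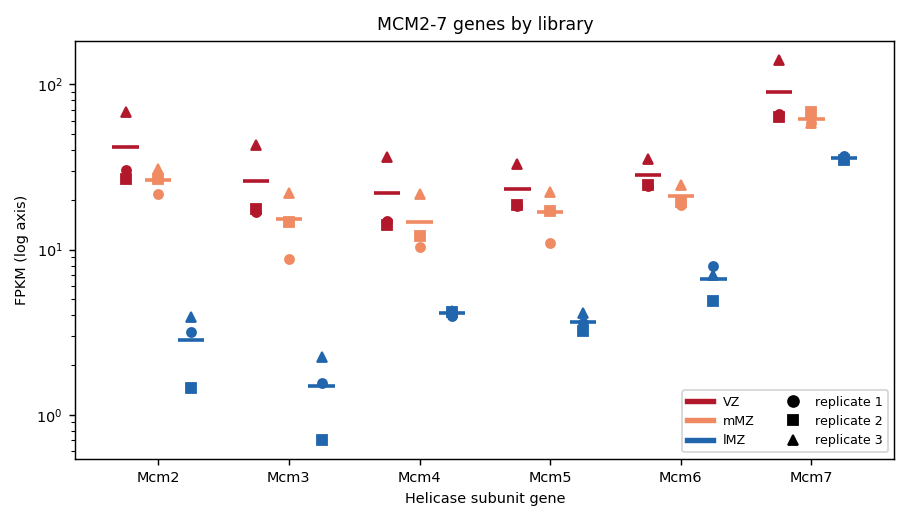
FPKM on a log axis of the 6 MCM2-7 genes, with 1 point per library, shapes for replicates and a short line for each zone mean, VZ left of mMZ and mMZ left of lMZ. The lMZ points of Mcm7 sit at 34.8 to 37.0 FPKM, while those of the other 5 genes are all below 8 FPKM.

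The windows of Mcm2 and Mcm7 are shown as the ends of the range within the helicase, with capitals as above, from the same RefSeq table of GRCm38.p6. They lie at chr6:88898731-88899030 and chr5:138171834-138172133, both on the minus strand, and the RefSeq start used for Mcm7 is 539 bases from the GENCODE M21 start of the gene.
Mcm2: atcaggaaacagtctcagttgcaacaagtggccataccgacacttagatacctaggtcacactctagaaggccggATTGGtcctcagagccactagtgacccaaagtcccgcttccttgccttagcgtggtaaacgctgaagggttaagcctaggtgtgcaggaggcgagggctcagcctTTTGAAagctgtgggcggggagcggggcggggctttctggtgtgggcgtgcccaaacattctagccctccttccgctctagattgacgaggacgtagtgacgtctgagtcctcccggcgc
Mcm7: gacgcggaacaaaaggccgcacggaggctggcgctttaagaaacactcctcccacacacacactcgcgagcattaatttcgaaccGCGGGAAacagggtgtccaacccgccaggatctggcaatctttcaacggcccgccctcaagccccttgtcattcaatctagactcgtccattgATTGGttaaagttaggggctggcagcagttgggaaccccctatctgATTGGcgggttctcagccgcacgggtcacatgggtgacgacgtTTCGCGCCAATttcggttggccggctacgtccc
The Mcm2 window held 1 CCAAT word and 1 TTTGAA word, and no E2F-type word. The Mcm7 window held 3 E2F-type words and 3 CCAAT words, and in the run TTCGCGCCAAT, 17 to 27 bases after the start, 2 E2F-type words and a CCAAT word overlap.

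Of the 4 co-factors that complete the CMG helicase, Cdc45 and Gins1 rose in VZ over lMZ. Cdc45 reached 7.17, 4.84 and 34.03 FPKM in VZ, 3.26, 4.52 and 6.57 FPKM in mMZ and 1.19, 1.18 and 1.27 FPKM in lMZ. Cdc45, which binds the side of the MCM ring, was highest in VZ replicate 3, and its lMZ libraries lay below all others. VZ minus lMZ, Cdc45 differed by 2.42 ± 0.58 (SE; limma adjusted p 0.0206) on the log2 scale. Without VZ replicate 3 and mMZ replicate 3 the difference was 1.64 with a limma adjusted p of 0.00320, whereas leaving out any single lMZ library raised the adjusted p to 0.0605 to 0.0706. Gins1, a GINS subunit, had a mean of 18.1 ± 3.55 FPKM in VZ, 12.9 ± 3.68 FPKM in mMZ and 5.30 ± 1.45 FPKM in lMZ (SD, n = 3 each). The Gins1 difference, VZ minus lMZ in log2 units, was 1.61 ± 0.28 (SE; limma adjusted p 0.00558), and this call was kept in each fit that leaves out 1 library, with 1.47 in the deeper libraries. Gins4 had 13.5, 13.8 and 11.99 FPKM in the VZ libraries, 16.4, 11.7 and 21.7 FPKM in mMZ and 9.703, 10.1 and 12.7 FPKM in lMZ. Gins4, another subunit of the same complex, had overlapping libraries, and the log2 difference of Gins4, VZ minus lMZ, was 0.26 ± 0.24 (SE; limma adjusted p 0.469). The level of Gins3 was 1.94, 1.695 and 1.596 FPKM in VZ and 1.74, 1.74 and 3.09 FPKM in mMZ, against 1.17, 0.416 and 0.934 FPKM in lMZ. Gins3 had the lowest mean of the 44 genes over the 9 libraries, and the log2 difference of Gins3, VZ minus lMZ, was 0.60 ± 0.31 (SE; limma adjusted p 0.1896).

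In the group of the clamp and its loader, 3 of 6 genes rose in VZ over lMZ: Pcna, Rfc1 and Rfc4. In VZ, Pcna was measured at 53.4, 46.3 and 104 FPKM, in mMZ at 36.2, 44.8 and 71.8 FPKM and in lMZ at 17.8, 14.01 and 14.3 FPKM. PCNA is the ring that holds the polymerases on DNA, and its VZ and mMZ libraries all lay above its lMZ libraries. On the log2 scale Pcna gave a difference of 1.99 ± 0.33 (SE; limma adjusted p 0.00463) for VZ minus lMZ, and the call was kept whichever library was left out. The loader subunits, the RFC proteins that open the clamp, were more even. Rfc2 reached 37.5, 43.3 and 58.4 FPKM in VZ, 36.2, 37.6 and 52.6 FPKM in mMZ and 35.4, 31.2 and 32.8 FPKM in lMZ. Rfc3 had 31.3, 31.3 and 58.1 FPKM in the VZ libraries, 26.1, 27.9 and 42.7 FPKM in mMZ and 25.7, 23.2 and 23.97 FPKM in lMZ. The level of Rfc5 was 10.1, 19.4 and 7.57 FPKM in VZ and 14.2, 13.2 and 20.5 FPKM in mMZ, against 13.6, 17.6 and 17.2 FPKM in lMZ. Rfc2 and Rfc3 stayed above 23 FPKM in every lMZ library, and the Rfc5 libraries of VZ and lMZ overlapped. None of the 3 passed the threshold: the log2 difference of Rfc2, VZ minus lMZ, was 0.45 ± 0.21 (SE; limma adjusted p 0.151), the log2 difference of Rfc3, VZ minus lMZ, was 0.65 ± 0.27 (SE; limma adjusted p 0.12004), and the log2 difference of Rfc5, VZ minus lMZ, was -0.45 ± 0.32 (SE; limma adjusted p 0.341). With library weights from limma, Rfc5 was lower in VZ with a difference of -0.51 and an adjusted p of 0.0425, and without VZ replicate 2 the difference was -0.81 with an adjusted p of 0.0488. For Rfc1 the log2 difference, VZ minus lMZ, was 1.13 ± 0.31 (SE; limma adjusted p 0.0344), and the log2 difference of Rfc4, VZ minus lMZ, was 1.15 ± 0.31 (SE; limma adjusted p 0.0315). Rfc1 lost its call without VZ replicate 1, without mMZ replicate 1 or 2, or without any lMZ library (limma adjusted p 0.0551 to 0.109), and Rfc4 without VZ replicate 1 or 3 or any lMZ library (0.0559 to 0.0962). In the deeper libraries all 3 calls were kept, with differences of 1.64 for Pcna, 0.78 for Rfc1 and 0.86 for Rfc4. The ratio of Pcna to the mean of Rfc2, Rfc3, Rfc4 and Rfc5 was 2.30, 1.73 and 2.79 in VZ, 1.61, 1.98 and 2.07 in mMZ, and 0.870, 0.708 and 0.708 in lMZ. Rfc2 shares 15.1% of its exonic bases with Lat2 and Rfc4 12.7% with Eif4a2, both on the opposite strand.

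Primase and polymerase alpha start each strand, and 1 of their 4 genes rose in VZ over lMZ. In VZ, Pola2 was measured at 11.4, 9.37 and 15.9 FPKM, in mMZ at 5.16, 8.42 and 6.95 FPKM and in lMZ at 4.49, 3.25 and 3.73 FPKM. Pola2, the accessory subunit of polymerase alpha, had all VZ libraries above all mMZ libraries and all mMZ libraries above all lMZ libraries. VZ minus lMZ, Pola2 differed by 1.43 ± 0.28 (SE; limma adjusted p 0.00912) on the log2 scale. Prim2 reached 7.01, 7.83 and 11.96 FPKM in VZ, 7.89, 7.099 and 10.6 FPKM in mMZ and 6.15, 4.16 and 5.14 FPKM in lMZ. Prim2, the large primase subunit, had VZ libraries above lMZ libraries but among those of mMZ, and the log2 difference of Prim2, VZ minus lMZ, was 0.67 ± 0.28 (SE; limma adjusted p 0.115). The catalytic subunits Pola1 and Prim1 had VZ means of 5.42 and 15.5 FPKM, mMZ means of 4.67 and 11.4 FPKM and lMZ means of 1.48 and 7.59 FPKM. The Pola1 difference, VZ minus lMZ in log2 units, was 1.32 ± 0.45 (SE; limma adjusted p 0.0688), and the log2 difference of Prim1, VZ minus lMZ, was 0.91 ± 0.37 (SE; limma adjusted p 0.113). In the deeper libraries the Pola2 difference was 1.24, and Pola1 passed, with a difference of 0.998 and a limma adjusted p of 0.0344.

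Of the 5 genes for polymerases delta and epsilon, Pold1, Pole and Pole2 rose in VZ over lMZ. Pole had 7.38, 5.61 and 20.3 FPKM in the VZ libraries, 1.87, 3.61 and 6.48 FPKM in mMZ and 1.19, 1.998 and 0.882 FPKM in lMZ. Pole, the catalytic subunit of the leading-strand polymerase, had VZ libraries above all lMZ libraries, with mMZ replicate 1 inside the lMZ range. On the log2 scale Pole gave a difference of 2.19 ± 0.50 (SE; limma adjusted p 0.0169) for VZ minus lMZ. The level of Pole2 was 3.18, 1.73 and 7.04 FPKM in VZ and 1.24, 1.71 and 6.81 FPKM in mMZ, against 0.181, 0.0875 and 0.413 FPKM in lMZ. Pole2 is the second subunit of the same enzyme, and its lMZ libraries lay below all others. For Pole2 the log2 difference, VZ minus lMZ, was 1.89 ± 0.53 (SE; limma adjusted p 0.0354). Pold1, the catalytic subunit of polymerase delta, had a mean of 33.2 ± 16.8 FPKM in VZ, 16.3 ± 1.11 FPKM in mMZ and 7.51 ± 1.51 FPKM in lMZ (SD, n = 3 each). VZ minus lMZ, Pold1 differed by 1.91 ± 0.32 (SE; limma adjusted p 0.00519) on the log2 scale. In VZ, Pold2 was measured at 18.997, 15.5 and 19.004 FPKM, in mMZ at 17.5, 17.4 and 44.8 FPKM and in lMZ at 15.8, 10.7 and 10.3 FPKM. Pold2 and Pold3, non-catalytic subunits of polymerase delta, did not pass: the log2 difference of Pold2, VZ minus lMZ, was 0.53 ± 0.35 (SE; limma adjusted p 0.304), and the log2 difference of Pold3, VZ minus lMZ, was 0.83 ± 0.27 (SE; limma adjusted p 0.0603). Pold3 passed in the deeper libraries, with a difference of 0.56 and a limma adjusted p of 0.0288. The call of Pole was lost without lMZ replicate 1 or 3 (limma adjusted p 0.0646 and 0.0610) and that of Pole2 without VZ replicate 1 or 3, mMZ replicate 2 or any lMZ library (0.0518 to 0.113), while that of Pold1 was kept throughout. In the deeper libraries all 3 passed, with differences of 1.54 for Pold1, 1.69 for Pole and 1.47 for Pole2.

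Replication protein A, the 3-subunit complex that coats single-stranded DNA, was uneven. Rpa2 reached 18.6, 16.9 and 38.9 FPKM in VZ, 9.94, 14.6 and 15.1 FPKM in mMZ and 6.55, 3.94 and 5.17 FPKM in lMZ. Rpa3 had 25.6, 30.6 and 42.9 FPKM in the VZ libraries, 35.02, 36.2 and 71.9 FPKM in mMZ and 34.2, 21.95 and 28.7 FPKM in lMZ. Rpa2 libraries of VZ lay above those of mMZ and those of mMZ above those of lMZ, whereas Rpa3 libraries of VZ and lMZ overlapped and the highest Rpa3 value was in mMZ replicate 3. The Rpa2 difference, VZ minus lMZ in log2 units, was 1.97 ± 0.34 (SE; limma adjusted p 0.00519), and the log2 difference of Rpa3, VZ minus lMZ, was 0.21 ± 0.31 (SE; limma adjusted p 0.656). Rpa1, the large DNA-binding subunit, had means of 31.5 ± 14.3 FPKM in VZ, 23.4 ± 2.82 FPKM in mMZ and 14.5 ± 0.841 FPKM in lMZ (SD, n = 3 each), and the log2 difference of Rpa1, VZ minus lMZ, was 0.98 ± 0.27 (SE; limma adjusted p 0.0333). In the deeper libraries the Rpa2 difference was 1.61, and that of Rpa1 was 0.64 with a limma adjusted p of 0.0112, and its call was lost without mMZ replicate 1 or 2 or any lMZ library (0.0531 to 0.1002). The ratio of Rpa3 to Rpa2 was 1.38, 1.82 and 1.10 in VZ, 3.52, 2.49 and 4.75 in mMZ, and 5.22, 5.57 and 5.57 in lMZ, with no overlap between the zones. Its VZ replicate 3 value rests on an estimated 7.6 Rpa3 fragments. Also computed were the ratios of Orc1 to the mean of Orc2 to Orc6, Pold1 to Pold2, and Pola2 to Prim1. For these, the mMZ and lMZ libraries overlapped, while every VZ library lay above every lMZ library. The mMZ and lMZ ranges were 0.046 to 0.367 and 0.0078 to 0.056 for Orc1, 0.383 to 0.949 and 0.385 to 0.885 for Pold1. For Pola2 they were 0.378 to 0.88 and 0.461 to 0.611. The VZ ranges were 0.0635 to 0.134 for Orc1, 1.216 to 2.715 for Pold1 and 0.730 to 0.917 for Pola2. In VZ replicate 3, Orc1 rests on an estimated 2.96 fragments and Pold2 on 8.13.

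Ribonucleotide reductase makes the deoxynucleotides for new DNA, and both of its subunit genes rose. The level of Rrm2 was 35.5, 24.6 and 49.6 FPKM in VZ and 18.4, 27.9 and 42.9 FPKM in mMZ, against 3.28, 1.91 and 2.901 FPKM in lMZ. In VZ, Rrm1 was measured at 28.3, 25.004 and 54.2 FPKM, in mMZ at 21.4, 24.3 and 37.7 FPKM and in lMZ at 9.76, 8.005 and 9.95 FPKM. Rrm2, the subunit that is made in S phase and broken down later in the cycle, and Rrm1, the large catalytic subunit, each had every VZ and mMZ library above every lMZ library. On the log2 scale Rrm2 gave a difference of 3.31 ± 0.35 (SE; limma adjusted p 0.000718) for VZ minus lMZ, the fourth largest of the 44 genes, and the log2 difference of Rrm1, VZ minus lMZ, was 1.77 ± 0.31 (SE; limma adjusted p 0.00591). Both calls were kept in each fit that leaves out 1 library, and in the deeper libraries the differences were 3.07 for Rrm2 and 1.44 for Rrm1. The ratio of Rrm2 to Rrm1 was 1.26, 0.984 and 0.915 in VZ, 0.858, 1.15 and 1.14 in mMZ, and 0.336, 0.239 and 0.292 in lMZ, so that the lMZ libraries stood apart while VZ and mMZ overlapped.

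Fen1 rose in VZ over lMZ and Lig1 did not pass. Fen1 reached 12.9, 13.7 and 24.7 FPKM in VZ, 9.56, 14.5 and 22.5 FPKM in mMZ and 7.03, 4.497 and 5.498 FPKM in lMZ. Fen1, the nuclease that trims Okazaki fragments, had all lMZ libraries below those of both other zones. For Fen1 the log2 difference, VZ minus lMZ, was 1.40 ± 0.35 (SE; limma adjusted p 0.0239), a call lost without any single lMZ library (limma adjusted p 0.0573 to 0.0895) and kept in the deeper libraries with a difference of 1.11 and an adjusted p of 0.0124. Of its exonic bases, 78.8% are shared with the antisense gene Gm10143, and reads of the pair cannot be told apart. Lig1 had 30.8, 32.8 and 59.3 FPKM in the VZ libraries, 25.9, 34.6 and 26.9 FPKM in mMZ and 18.1, 21.6 and 33.1 FPKM in lMZ. Lig1, the ligase that seals the fragments, had lMZ replicate 3 above 2 of the 3 VZ libraries, and the log2 difference of Lig1, VZ minus lMZ, was 0.71 ± 0.29 (SE; limma adjusted p 0.115).

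Chromatin assembly factor 1 places histones on new DNA, and 1 of its 2 subunit genes passed. The level of Chaf1a was 10.8, 8.06 and 19.4 FPKM in VZ and 5.92, 7.41 and 6.64 FPKM in mMZ, against 1.76, 1.78 and 3.07 FPKM in lMZ. Chaf1a, the large subunit, had its VZ libraries above its mMZ libraries and these above its lMZ libraries. VZ minus lMZ, Chaf1a differed by 2.04 ± 0.33 (SE; limma adjusted p 0.00452) on the log2 scale, and the call was kept whichever library was left out. It shares 52.5% of its exonic bases with Ubxn6 on the opposite strand. In VZ, Chaf1b was measured at 8.18, 8.96 and 13.7 FPKM, in mMZ at 6.57, 7.96 and 19.7 FPKM and in lMZ at 3.96, 4.27 and 3.11 FPKM. Chaf1b, the middle subunit, had all VZ and mMZ libraries above lMZ, and the log2 difference of Chaf1b, VZ minus lMZ, was 1.21 ± 0.38 (SE; limma adjusted p 0.0517). In the deeper libraries the Chaf1a difference was 1.71, and Chaf1b passed, with a difference of 1.01 and a limma adjusted p of 0.00939.

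Both activator E2F genes, whose products drive transcription of S-phase genes, rose in VZ over lMZ. E2f1 reached 20.4, 12.46 and 46.1 FPKM in VZ, 6.14, 9.13 and 10.8 FPKM in mMZ and 0.807, 0.624 and 0.736 FPKM in lMZ. E2f1 had separate ranges in all 3 zones, and its lMZ values were all below 1 FPKM. The E2f1 difference, VZ minus lMZ in log2 units, was 3.79 ± 0.42 (SE; limma adjusted p 0.000848), the largest of the 44 genes. E2f2 had 2.37, 1.6004 and 7.05 FPKM in the VZ libraries, 2.11, 2.15 and 3.04 FPKM in mMZ and 0.121, 0.0583 and 0.137 FPKM in lMZ. E2f2 was lower in level than E2f1 in every library, and its lMZ libraries again lay below all others. On the log2 scale E2f2 gave a difference of 1.90 ± 0.41 (SE; limma adjusted p 0.0144) for VZ minus lMZ. The E2f2 call was lost without lMZ replicate 1 or 2, with limma adjusted p of 0.0568 and 0.0579, and that of E2f1 was kept throughout. Both passed in the deeper libraries, with differences of 3.30 for E2f1 and 1.42 for E2f2.

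**Figure D3:**
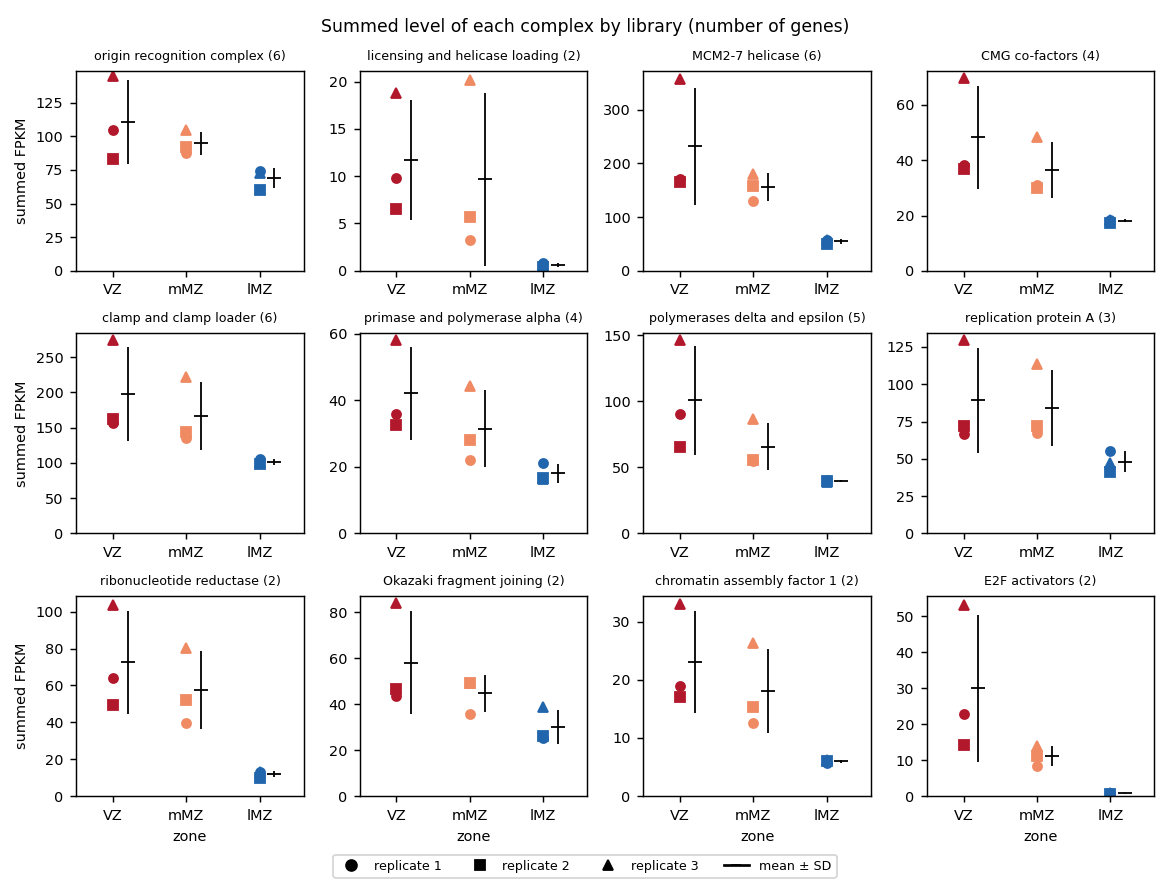
Summed FPKM of each of the 12 groups of replication genes in every library, with the number of genes in brackets, shapes for replicates and the mean ± SD (n = 3) beside the points. The summed level of ribonucleotide reductase was 72.4 ± 28.1 FPKM in VZ, 57.5 ± 20.9 FPKM in mMZ and 11.9 ± 1.75 FPKM in lMZ, and that of the origin recognition complex was 111 ± 31.4 FPKM in VZ, 94.8 ± 8.76 FPKM in mMZ and 69.1 ± 7.65 FPKM in lMZ.

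Between VZ and mMZ, 0 of the 44 genes passed the limma adjusted threshold, and 0% of all tested genes did. At an unadjusted p below 0.05, 7 replication genes were higher in VZ, where 3.7% of tested genes were, and 0 were lower, where 8.16% were. The 7 were Pola2, Pold1, Pold3, Pole, Rpa2, Chaf1a and E2f1. All VZ libraries lay above all mMZ libraries for 6 of the 44 genes, against 5.36% of all tested genes. Those 6 were the genes just named other than Pole. The level of Pold3 was 31.7, 23.96 and 48.3 FPKM in VZ and 17.96, 17.8 and 11.2 FPKM in mMZ, against 17.6, 19.4 and 18.1 FPKM in lMZ. Pold3, the polymerase delta subunit that also serves in repair synthesis, showed a pattern shared by no other replication gene with separate VZ and mMZ libraries, since its mMZ and lMZ libraries overlapped. For Pold3 the log2 difference, VZ minus mMZ, was 1.07 ± 0.27 (SE; limma adjusted p 0.332). VZ minus mMZ, E2f1 differed by 1.33 ± 0.42 (SE; limma adjusted p 0.393) on the log2 scale. The other 4 genes with separate libraries had log2 differences of 0.75 ± 0.28 for Pola2, 0.87 ± 0.32 for Pold1, 0.78 ± 0.34 for Rpa2 and 0.76 ± 0.33 for Chaf1a (SE), with limma adjusted p of 0.393 to 0.417. The difference was above 0 for 37 of 44 genes, where it was above 0 for 45.2% of tested genes, and its median was 0.35, against -0.05 for all tested genes. That median moved with single libraries: it was 0.059 without VZ replicate 3 and 0.16 without mMZ replicate 1, but 0.56 without VZ replicate 2 and 0.55 without mMZ replicate 3, and 0.21 in the 7 deeper libraries, against -0.06 for all tested genes there. Without VZ replicate 2, Pold3 and E2f1 rose, with limma adjusted p of 0.0337 and 0.0421. Over all tested genes that fit gave 571 calls, of which only 99 (17.3%) were higher in VZ. VZ replicate 2 had marker sums within the mMZ range, and their part in these calls was not tested. Without VZ replicate 3, as in the 7 deeper libraries, 0 genes passed. The 6 differences named above were 0.44 to 0.998 in the deeper libraries. With limma library weights 6 of the 44 genes rose, against 5.56% of tested genes.

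Between mMZ and lMZ, 8 of the 44 genes rose, where 3.58% of tested genes rose and 0.543% fell, and 0 replication genes fell by limma. Their count lower in mMZ was also 0 at an unadjusted p below 0.05, where 857 of the 14004 tested genes were lower. The 8 were Mcm2, Mcm3, Mcm5, Mcm6, Pcna, Rrm1, Rrm2 and E2f1, all of which also rose in VZ over lMZ, a comparison that uses the same lMZ libraries. The Rrm2 difference, mMZ minus lMZ in log2 units, was 2.99 ± 0.35 (SE; limma adjusted p 0.00261). On the log2 scale Mcm2 gave a difference of 2.88 ± 0.38 (SE; limma adjusted p 0.00417) for mMZ minus lMZ. For Mcm3 the log2 difference, mMZ minus lMZ, was 2.66 ± 0.44 (SE; limma adjusted p 0.0101). The other 5 called genes had differences of 1.46 to 2.46. All 3 mMZ libraries lay above all 3 lMZ libraries for 33 of 44 genes, against 25.7% of tested genes, and the median difference was 1.03, against 0.10 for all tested genes. Quantile normalization changed the share of calls over all genes that were higher in mMZ to 66.6%, against 86.8% without it. Only Mcm2, Mcm6 and Rrm2 kept the call in each of the 9 fits that leave out 1 library. Mcm3 and Mcm5 lost it without mMZ replicate 2 or lMZ replicate 2 (limma adjusted p 0.0501 to 0.0544), and E2f1 without those or without mMZ replicate 3 or lMZ replicate 1 (0.05003 to 0.0607). Pcna lost its call without mMZ replicate 2 or 3 or any lMZ library (limma adjusted p 0.0723 to 0.115) and Rrm1 without any single mMZ or lMZ library (0.0553 to 0.137). The count was 3 to 5 without mMZ replicate 2, mMZ replicate 3, lMZ replicate 1 or lMZ replicate 2, but 21 without VZ replicate 3, which enters this comparison only through the shared estimate of the spread. In the 7 deeper libraries 23 of the 44 genes rose, among them the 8, against 9.29% of tested genes, and the median difference was 0.72.

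**Figure D4:**
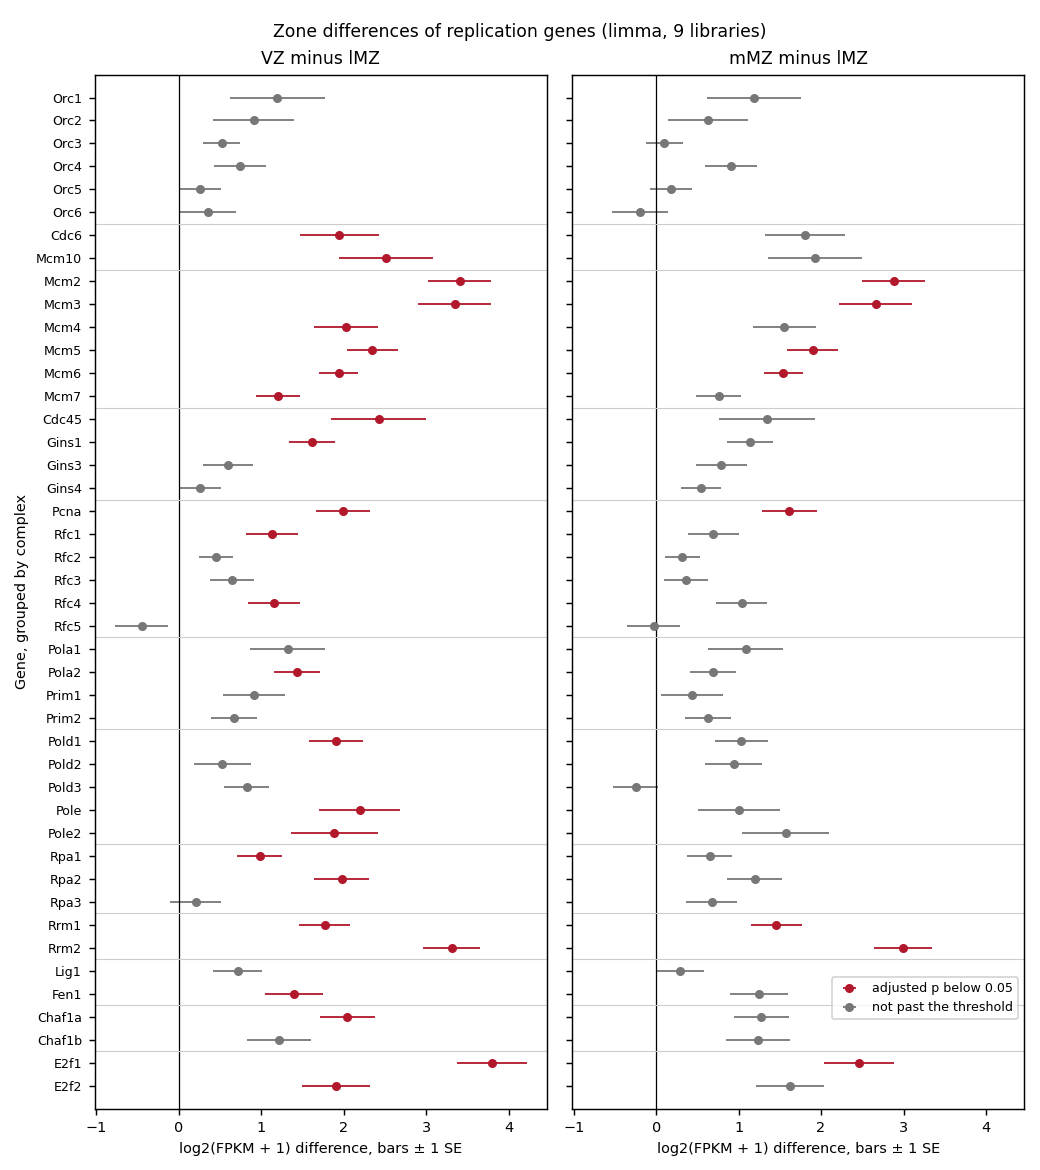
Log2(FPKM + 1) differences with bars of ± 1 SE for the 44 genes, VZ minus lMZ on the left and mMZ minus lMZ on the right, on the same axis. Red points have a limma adjusted p below 0.05: 25 genes on the left and 8 on the right, with E2f1 the largest on the left and Rrm2 the largest on the right.

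Other genes of the replication pathway, 58 in 7 lists, were measured in the same libraries. Of these, 32 rose and 1 fell in VZ over lMZ, where 10.7% of all tested genes rose and 8.93% fell, with a median difference of 1.22. In the 7 deeper libraries 40 rose and 2, Nme1 and Pold4, fell, where 15.7% of tested genes rose and 12.4% fell, and the median was 0.93. Among S-phase cyclins and kinases 4 of 5 rose, among fork protection genes 6 of 9, among licensing and firing genes 6 of 11, among nucleotide supply genes 5 of 8 with 1 fall, among histone and chromatin genes 5 of 8, among other E2F, DP and pocket protein genes 5 of 11, and among small polymerase subunits and RNase H2 genes 1 of 6. The 8 largest differences were those of Uhrf1, which binds hemimethylated DNA behind the fork (3.69), Ccna2, the S-phase cyclin (3.51), Gmnn, the licensing inhibitor geminin (3.29), Cdk2 (2.99), Tk1, thymidine kinase (2.71), Clspn, a fork checkpoint mediator (2.55), Asf1b, a histone chaperone (2.38), and the repressor E2f8 (2.23), all with limma adjusted p of 0.000848 to 0.0194, and their differences in the deeper libraries were 1.81 to 3.19. Without lMZ replicate 1 or 2 the calls of Asf1b and E2f8 were lost, with limma adjusted p of 0.0646 to 0.0764, and without lMZ replicate 3 that of Asf1b, with 0.0559. In VZ, Nme1 was measured at 42.3, 56.04 and 14.7 FPKM, in mMZ at 85.05, 64.3 and 51.3 FPKM and in lMZ at 116, 92.9 and 87.03 FPKM. Nme1, a nucleoside diphosphate kinase, was the 1 gene that fell: its log2 difference was -1.55 ± 0.41 (SE) with a limma adjusted p of 0.0298, and the call was lost without VZ replicate 1 or any lMZ library (0.0565 to 0.105). In the deeper libraries the Nme1 difference was -0.99 with an adjusted p of 0.00941. The next smallest were Pold4 (-0.78), Cdc7 (-0.26), Rbl2 (0.09), Pole4 (0.12) and Rrm2b (0.15), with limma adjusted p of 0.414 to 0.856. Pold4, a small subunit of polymerase delta, fell in the deeper libraries (-0.95, limma adjusted p 0.0383) and with library weights (-1.28, 0.00861), and Rrm2b, a ribonucleotide reductase subunit, fell with library weights (-0.69, 0.0343). Between mMZ and lMZ 12 of the 58 rose, where 3.58% of tested genes did, and between VZ and mMZ 0 passed by limma. At an unadjusted p below 0.05, 2 of the 58 were higher in VZ than in mMZ and 2 lower. Of all tested genes 3.7% were higher and 8.16% lower. All 10 genes listed as mitosis markers rose in both VZ and mMZ over lMZ, with median differences of 3.96 and 3.07. Their summed level was 389, 262 and 901 FPKM in VZ, 179, 233 and 388 FPKM in mMZ, and 21.6, 12.3 and 26.6 FPKM in lMZ.

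**Figure D5:**
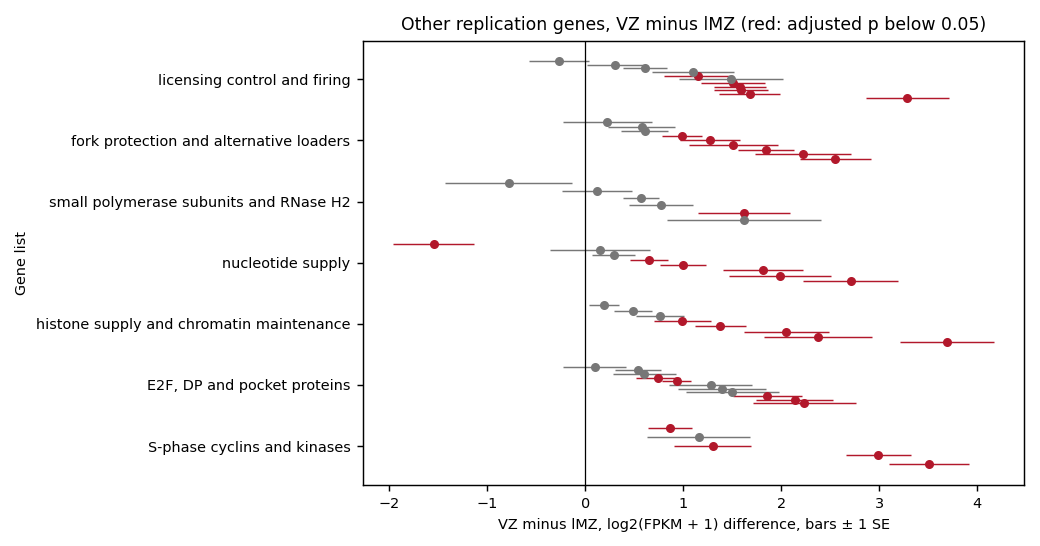
VZ minus lMZ differences, on the log2(FPKM + 1) scale with bars of ± 1 SE, of 58 other replication genes in 7 lists, with red points at a limma adjusted p below 0.05. The 1 red point left of 0 is Nme1, at -1.55.

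Promoter windows were found for 38 of the 44 genes, in the same RefSeq table. Of the 38 genes, 26 (68.4%) had an E2F-type word in at least 1 window on either strand, as had 19.96% of 9482 tested genes and 10.9% of all 27025 genes with a window. CCAAT was present for 65.8% of the replication genes and 43.3% of tested genes, and TTTGAA for 15.8% and 13.6%. The E2F-type word was present for 15 of 22 genes that rose in VZ over lMZ and for 11 of 16 that did not pass, or 68.2% and 68.8%. Among 9 mitosis markers with a window, 3 had an E2F-type word, all 9 had CCAAT and 7 had TTTGAA. In the windows printed above, Mcm2 and Orc5 had no E2F-type word, Orc1 had 1 and Mcm7 had 3. Only fixed words in 300 bases were searched, and 6 of the 44 genes had no window. The part of these words in the zone differences was not tested.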

How the data were processed

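Per the labels' protocols, total RNA was purified with an RNeasy Micro kit, made into mRNA libraries with a NEBNext Ultra kit and read as 100 bp pairs on an Illumina HiSeq instrument. Tools and builds listed are Bowtie2 2.1.0 and mm10, per the submitters' processing notes. The authors deposited one table of FPKM values per gene symbol; the program that estimated FPKM, its annotation and its use of strand are not given in the sources used here. No 2 libraries held identical values.

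Of 38370 rows, 42 identical repeats and 133 further rows of a repeated symbol (the highest was kept) were removed, which left 38195 symbols. The 14004 symbols with at least 1 FPKM in at least 3 libraries, all 44 replication genes among them, were tested on log2(FPKM + 1) with limma 3.58.1 in R 4.3.3 (zone means, all 9 libraries, intensity trend, two-sided, Benjamini-Hochberg adjustment over all tested genes, threshold 0.05). This scale understates differences of low genes. Depth was estimated from the steps between low FPKM values, of which 64.8 to 69.1% per library lay within 0.1 step of a whole number; it is approximate, so no counts were tested. Overlapping exons come from GENCODE M21. The genes and lists were chosen with earlier results of these data known. Per-library values are given for the largest and smallest VZ minus lMZ difference in each group, all MCM2-7 genes, the 5 highest and 5 lowest means and genes listed at 0, and for Pold3, picked after its values were seen; of the other pathway genes the 8 largest and 6 smallest differences are named. Means, calls and ranges cover the rest. In all, 21 alternative settings were tried, each library being left out in turn.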

Additional observations from a re-analysis of the deposited data

How the results depend on the processing

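In all 21 alternatives, 12 of the 25 calls for VZ over lMZ passed (Mcm2, Mcm3, Mcm5, Mcm6, Gins1, Pcna, Pola2, Pold1, Rpa2, Rrm2, Chaf1a and E2f1), as did 1 of the 8 for mMZ over lMZ (Rrm2). Leaving out 1 library gave 14 to 28 higher and 0 to 1 lower replication genes for VZ over lMZ, 0 to 2 higher for VZ over mMZ and 3 to 21 higher for mMZ over lMZ, and over all genes 959 to 3958, 0 to 571 and 207 to 1760 calls, where the counts with all libraries were 2750, 0 and 577. With no filter on low values, 38195 symbols were tested, and 12 replication genes rose in VZ over lMZ and 1 in mMZ over lMZ, with 816 and 144 calls over all genes. With library weights 35 rose in VZ over lMZ, 6 in VZ over mMZ and 26 in mMZ over lMZ, 1 fell in VZ over lMZ (Rfc5), and all genes gave 6800, 2761 and 3700 calls for VZ over lMZ, VZ over mMZ and mMZ over lMZ. With only the 2 zones compared in the fit, 20 rose in mMZ over lMZ, and all genes gave 1684 calls for VZ over lMZ and 2027 for mMZ over lMZ. Without both shallow libraries 23 rose in mMZ over lMZ, with 1666 calls over all genes. For VZ over mMZ all genes gave 4 calls with a minimum of 5 FPKM and 9 with quantile normalization. The causes were not tested. TMM scaling moved the median difference of all genes by -0.11 for VZ over lMZ and -0.12 for mMZ over lMZ, and the medians of the replication genes were then 1.18 and 0.90, against all-gene medians of -0.06 and -0.02.

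The sign of VZ minus lMZ reversed for Rpa3 with library weights (-0.12), for Orc6 without both shallow libraries (-0.025), for Rrm2b with quantile normalization (-0.091), library weights (-0.69) and without both shallow libraries (-0.53), for Rbl2 with quantile normalization (-0.048), TMM (-0.023) and library weights (-0.21), and for Pole4 with TMM (-0.0073). Leaving out 1 library gave -0.025 to 0.61 for Orc6, -0.53 to 0.62 for Rrm2b and -0.11 to 0.31 for Rbl2. None of these passed in the unweighted fit of all libraries, and with library weights Rrm2b passed (limma adjusted p 0.0343). For VZ over mMZ 43 of 918 values reversed, in 20 genes, and for mMZ over lMZ 10, in 3 genes. The replicate numbers are shared by the zones, but the labels do not say that they pair the libraries, so the main fit used no replicate block. Deviations from the zone mean in same-numbered libraries correlated with r of -0.10, 0.09 and 0.03 for VZ and lMZ. For VZ and mMZ r was 0.09, 0.16 and 0.25, and for mMZ and lMZ 0.02, 0.22 and 0.11. With 3 libraries a zone, and both shallow libraries numbered 3, these values can neither show nor exclude pairing. For VZ over lMZ, 26 replication genes rose with the replicate block and 25 without it, where 1584 and 1500 of all tested genes rose. For mMZ over lMZ, 11 replication genes rose with the block and 8 without it, where 596 and 501 of all tested genes rose. For VZ over mMZ, 0 replication genes and 0 of all tested genes rose, with the block or without it.

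The depth of VZ replicate 3 and mMZ replicate 3 limits genes at a few FPKM, since 1 fragment on a 2 kb transcript is worth 1.92 FPKM in the first and 0.931 FPKM in the second. In lMZ, 3 to 6 of the 44 genes rested on fewer than 10 estimated fragments. Zones are bulk tissue, so differences in cell makeup and in RNA per cell cannot be told apart.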
